A study of Homo sapiens with 6 samples.

Results

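A set of 10 genes of cell-cell junctions, the cadherins CDH1, CDH2 and CDH3, the catenins CTNNA1, CTNNB1, CTNND1 and JUP, and the desmosome genes DSP, PKP2 and DSG2, was followed in A549 cells after silencing of NME2. The genes were chosen by name, but with earlier results of these data known. Of the 10, 9 have a probe set (a group of short oligonucleotides reporting on a transcript) annotated with a single gene symbol on the HG-U133 Plus 2.0 array, as do 19775 genes in all. All 6 arrays held RNA of A549, an established human lung adenocarcinoma line. Every sample had received siRNA, 3 of them duplexes against NME2 (NME2-depleted) and 3 control duplexes. Silencing was transient, for a time that the sources do not state. The series text speaks of biological replicates but describes no separate cultures, so the tests measure the spread between these arrays.

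Classical cadherins are calcium-dependent adhesion receptors whose cytoplasmic tails bind beta-catenin or plakoglobin, and p120-catenin near the membrane, while alpha-catenin couples the complex to actin. In desmosomes, desmogleins and desmocollins take the place of classical cadherins, and plakoglobin, plakophilins and desmoplakin tie them to intermediate filaments. Epithelial cells are held together by E-cadherin (CDH1), N-cadherin (CDH2) is typical of mesenchymal and neural cells, and beta-catenin also acts in the nucleus in WNT signalling. These arrays measured RNA only, so nothing here bears on junctions as structures or on protein.

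Promoter sequence is shown for the cadherins CDH2 and DSG2, whose probe sets were all higher on every depleted array than on any control array, and for JUP, the tested member with a lower mean log2 signal. Each window runs from 250 bases before to 50 bases after a RefSeq start of transcription (GRCh38.p14), 5′ to 3′. JUP has more than 1 start in the table and both its windows are given, and for CDH2 the first listed is given. Capitals mark the E-box letters CACCTG or CAGGTG, which are each other's reverse complement, so both strands were searched. E-boxes of this kind are bound by SNAI and ZEB repressors.
CDH2, chr18:28177081-28177380, minus strand: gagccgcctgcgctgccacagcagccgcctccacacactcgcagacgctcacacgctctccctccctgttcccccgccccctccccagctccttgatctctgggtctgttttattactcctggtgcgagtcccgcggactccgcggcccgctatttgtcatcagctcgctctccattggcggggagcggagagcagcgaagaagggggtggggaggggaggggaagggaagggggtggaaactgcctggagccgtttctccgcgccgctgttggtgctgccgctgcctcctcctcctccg
DSG2, chr18:31497927-31498226, plus strand: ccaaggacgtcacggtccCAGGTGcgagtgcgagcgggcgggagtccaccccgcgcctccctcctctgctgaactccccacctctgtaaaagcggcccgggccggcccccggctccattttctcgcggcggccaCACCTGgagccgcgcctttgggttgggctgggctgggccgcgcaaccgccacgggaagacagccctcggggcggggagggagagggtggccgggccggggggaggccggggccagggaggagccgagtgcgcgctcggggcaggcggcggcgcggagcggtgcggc
JUP, chr17:41786662-41786961, minus strand: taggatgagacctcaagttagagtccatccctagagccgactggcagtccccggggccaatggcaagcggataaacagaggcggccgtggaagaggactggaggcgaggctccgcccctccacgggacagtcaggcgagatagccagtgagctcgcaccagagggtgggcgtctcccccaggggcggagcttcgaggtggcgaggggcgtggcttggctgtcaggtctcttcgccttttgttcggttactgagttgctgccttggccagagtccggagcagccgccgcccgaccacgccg
JUP, chr17:41785927-41786226, minus strand: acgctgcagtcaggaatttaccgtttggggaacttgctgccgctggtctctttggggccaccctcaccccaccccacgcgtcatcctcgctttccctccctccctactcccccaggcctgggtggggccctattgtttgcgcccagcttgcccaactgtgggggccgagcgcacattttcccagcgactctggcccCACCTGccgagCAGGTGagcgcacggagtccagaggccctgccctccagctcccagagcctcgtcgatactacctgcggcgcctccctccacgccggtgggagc

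The DSG2 window held 2 such E-boxes, the second JUP window held 2 and the CDH2 window held 0. Of 11 windows found for 6 members, 3 held an E-box, the third being that of DSP, against 20.6% of all 35116 windows in the table. No window is given for CDH1, CDH3, CTNND1 and PKP2. A match of letters is a description and not a binding site.

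The silencing was seen on every array. The NME2 probe set, which also carries the symbol of the read-through NME1-NME2, gave signals of 1920, 3676 and 3216 on the depleted arrays and 17862, 19389 and 21044 on the control arrays, a log2 difference of -2.78 (SE 0.19, limma adjusted p = 0.00032). Median signals of the 6 arrays lay between 75.8 and 85.4. The ratio of 3' to 5' signal of the ACTB control probes, a sign of RNA quality, was 1.33 to 1.40 on depleted and 1.20 to 1.30 on control arrays, with no overlap, while that of GAPDH was 0.985 to 1.06 and 0.970 to 1.02. Its part in the results below was not tested. The keratins KRT7 and KRT18 had signals of at least 25396 on all 6 arrays, with overlapping groups. The epithelial adhesion molecule EPCAM was dimmer and gave 714.3, 836.9 and 547.1 on the depleted and 430.6, 455 and 380.9 on the control arrays, without overlap (log2 difference 0.71, SE 0.16, limma adjusted p = 0.0884). KRT8, given with the keratins below, was lower on all depleted arrays. Summed epithelial signals were 74012 to 81010 on depleted and 75537 to 82809 on control arrays. Of the epithelial markers 6 of 6 passed the filter on dim probe sets and so did 3 of 8 leukocyte, 4 of 7 fibroblast and 1 of 6 endothelial markers that have one. PTPRC, the pan-leukocyte surface phosphatase, had a highest signal of 25.5 and did not pass. The leukocyte markers that passed were CD14, at 191.9 to 349.5 over the 6 arrays, CD79A at 137.3 to 260.9 and CD3E at 49.9 to 120.1. Summed leukocyte signals were 588.4 to 704.2 on depleted and 690.1 to 836.4 on control arrays, fibroblast signals 976.8 to 1245 and 866.3 to 1135, and endothelial signals 298.8 to 403.2 and 265.8 to 331.8. The part of other cell types was not tested. In such bulk RNA, fewer cells that make a transcript and less of it per cell cannot be told apart.

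No member differed past the threshold in the main fit, which did not pair arrays by replicate number, although most had a slightly higher mean in depleted cells. With the replicate number as a block JUP did pass, as given in the last section. Of the 10 members 9 had probe sets with 1 symbol, 19 in all, and 17 of these, covering 8 members, reached the mean signal of 71.7 at which a probe set was tested. By limma, 0 of 17 had an adjusted p under 0.05, against 0.396% of all 27307 tested probe sets. At an unadjusted p under 0.05, 6 were higher and 1 was lower (12.9% of all tested probe sets passed). On 8 of the 17 the 3 depleted arrays did not overlap with the 3 control arrays, always with the depleted arrays higher, where 18.6% of all tested probe sets did not overlap, 9.66% with the depleted and 8.91% with the control arrays higher. These 8 belong to CDH1, CDH2, CTNNA1, CTNNB1, PKP2 and DSG2, and probe sets of a gene are not independent of each other. The count was 4 with each array centred on its median (5.74% of all higher), the lowest of the 3 other scalings, and those 4 were both probe sets of CDH2 and 1 each of PKP2 and DSG2. It was 8 to 10 when any 1 array was left out (14.2% to 15.4% of all higher). Because the members were chosen with earlier results of these data known, these counts and the medians below are a description and not a test.

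When each gene was taken by the brightest of its tested probe sets, the median log2 difference, NME2-depleted minus control, was 0.19 over 8 members and 0.00064 over all 12406 tested genes. Of the 8, 7 had a higher mean log2 signal in depleted cells, against 50.2% of all tested genes, and 0 of 8 passed the adjusted threshold, against 0.540%. Median centring moved the members' median to 0.15 and that of all tested genes to -0.048.

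**Figure D1:**
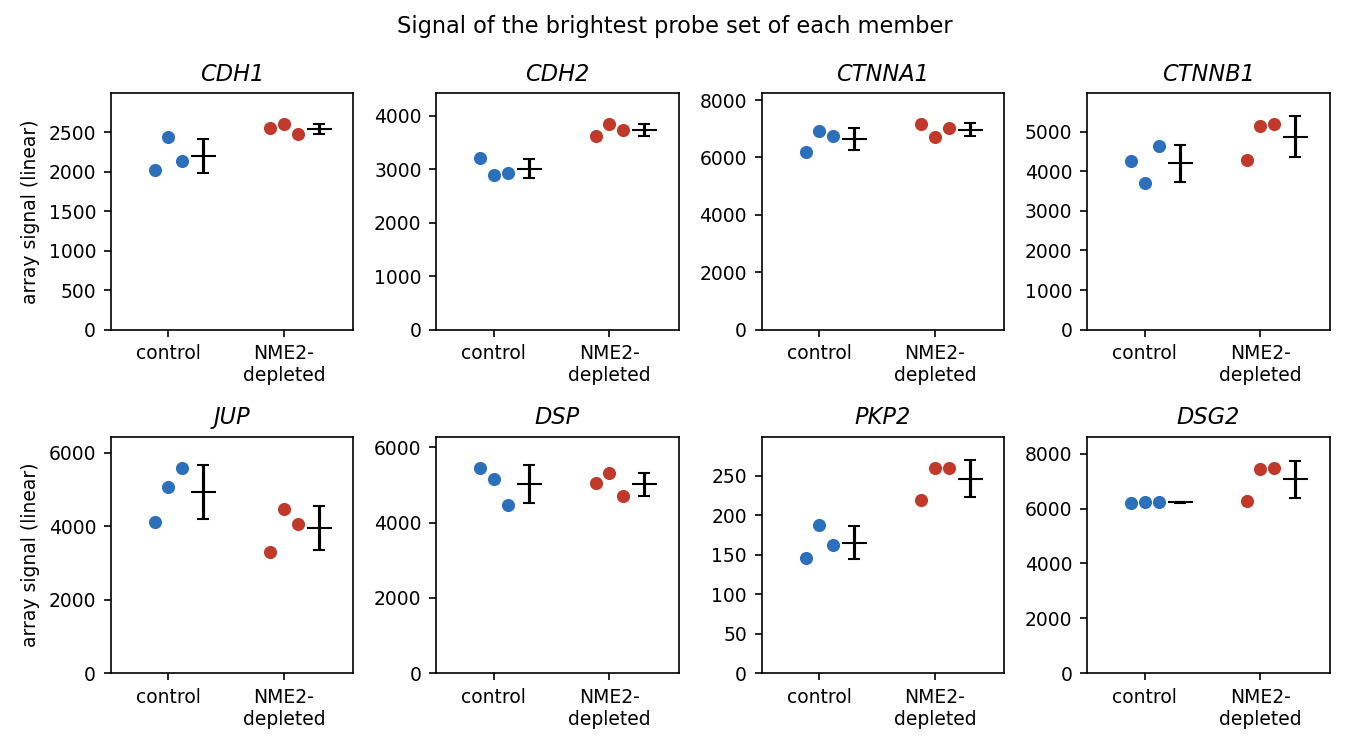
Signals of the brightest probe set of the 8 tested members. Linear signal runs up each panel from 0, points are arrays (control in blue, NME2-depleted in red), and the bar beside them is the mean with SD of 3 arrays. The 3 depleted arrays lie above the 3 control arrays for CDH1, CDH2, PKP2 and DSG2, and the groups overlap for CTNNA1, CTNNB1, JUP and DSP.

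Among the classical cadherins, N-cadherin had the lowest p of any member. The brighter CDH2 probe set gave 3619, 3843 and 3737 on the depleted and 3216, 2901 and 2928 on the control arrays. The lowest depleted array was thus above the highest control array. The means were 3733 ± 112 and 3015 ± 174.5 (SD, n = 3), a log2 difference of 0.31 (SE 0.072, 95% interval 0.15 to 0.47) or 1.24-fold, with a limma adjusted p of 0.103. The other probe set gave 632.1, 680.4 and 712.7 against 503.4, 461 and 510.6, again without overlap. Its log2 difference was 0.46 (SE 0.11, adjusted p = 0.111), or 1.37-fold. By unadjusted p these 2 probe sets ranked 343rd and 391st of 27307.

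E-cadherin, which mediates adhesion between epithelial cells, had a smaller mean difference. The brighter CDH1 probe set gave 2555, 2600 and 2475 on depleted and 2026, 2442 and 2141 on control arrays, so that the groups were separated only by the step from 2442 to 2475. The log2 difference was 0.21 (SE 0.085, 95% interval 0.025 to 0.40, limma adjusted p = 0.324). The dimmer probe set gave 145.8, 159.8 and 147.9 on depleted arrays and 57.3, 107.8 and 181.4 on control arrays. The control arrays spread on both sides of the depleted ones. Its difference of 0.54 (SE 0.36, adjusted p = 0.573) was 0.11 without control replicate 1 and 0.94 without control replicate 3.

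P-cadherin (CDH3), a classical cadherin of basal epithelia, had a single probe set under the filter. Its signals were 4.2, 3.3 and 4.7 on the depleted and 4, 22.1 and 8.8 on the control arrays. Detection calls were not used here, so CDH3 can only be said to have been dim on all 6 arrays.

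Catenins showed small differences in both directions. CTNNB1, beta-catenin, had signals of 4286, 5154 and 5186 on depleted and 4253, 3706 and 4640 on control arrays, and these overlapped. The difference was 0.22 (SE 0.10, 95% interval -0.0049 to 0.44, limma adjusted p = 0.397), and it was 0.13 without control replicate 2. Its second probe set gave 305.4, 268.3 and 272 against 257.3, 248 and 265.4, without overlap (log2 difference 0.13, and 0.073 without NME2-depleted replicate 1), and its dimmest had -0.037 with overlapping arrays.

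JUP encodes plakoglobin, a close relative of beta-catenin that is shared by adherens junctions and desmosomes, and was the only one of the 8 tested members whose mean log2 signal on the brightest probe set was lower in depleted cells. Its single probe set gave 3292, 4473 and 4058 on the depleted and 4119, 5067 and 5586 on the control arrays. The highest depleted array lay above the lowest control array. The means were 3941 ± 599 and 4924 ± 744 (SD, n = 3) and the log2 difference -0.32 (SE 0.13, 95% interval -0.60 to -0.04, limma adjusted p = 0.318), or 1.25-fold lower. Without NME2-depleted replicate 1 the difference was -0.20, and without control replicate 1 it was -0.44. JUP passed the adjusted threshold when the replicate number was fitted as a block, as given in the last section.

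Beta-catenin and plakoglobin therefore had differences of opposite sign. The log2 ratio of CTNNB1 to JUP, set to a mean of 0 over the control arrays, was 0.61, 0.43 and 0.58 on the depleted arrays and 0.27, -0.23 and -0.043 on the control arrays. All 3 depleted arrays were above all 3 control arrays. The mean shift was 0.54, or 1.45-fold, with an exact two-sided permutation p of 0.1, which is the smallest that 3 against 3 arrays can give and 0.3 after adjustment over the 3 ratios computed. The same ratio of CDH2 to CDH1 shifted by 0.098 with overlapping arrays (exact permutation p = 0.6, adjusted 0.6), and that of DSG2 to DSP by 0.18 (exact permutation p = 0.2, adjusted 0.3). These 3 ratios were picked after the values had been seen, and JUP was the only tested member with a lower mean log2 signal. The permutation and adjusted p-values do not account for that choice, so no conclusion is drawn from them.

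CTNNA1, alpha-catenin, was measured by 5 tested probe sets. The brightest gave 7156, 6711 and 7042 on depleted and 6195, 6928 and 6760 on control arrays, a log2 difference of 0.074 (SE 0.069, 95% interval -0.079 to 0.23, limma adjusted p = 0.709), which was 0.026 without control replicate 1. Of the 5, only the third brightest did not overlap, at 3196, 3237 and 3268 against 2934, 3023 and 2921. Its difference was 0.13 (SE 0.066, adjusted p = 0.447), and the remaining 3 had 0.012, 0.062 and 0.27, the last of them 0.16 without control replicate 3. The 5 means were all higher in depleted cells, but with median centring that of the second brightest was lower (-0.036).

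CTNND1, p120-catenin, which stabilises cadherins at the membrane, has no probe set of its own here, since all 4 that carry it also carry the read-through TMX2-CTNND1. They stand outside the counts above. On the third brightest of them the depleted arrays gave 877.2, 934.5 and 859.1 and the control arrays 1090, 1150 and 1232, all 3 depleted arrays being lower. The log2 difference was -0.38 (SE 0.092, 95% interval -0.58 to -0.18, limma adjusted p = 0.112). The other 3 overlapped between groups and had differences of -0.13, -0.11 and 0.013. The first was -0.044 and the second -0.060 without control replicate 3, and the last turned to -0.036 with median centring, so the probe sets for this pair of symbols did not share a size.

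**Figure D2:**
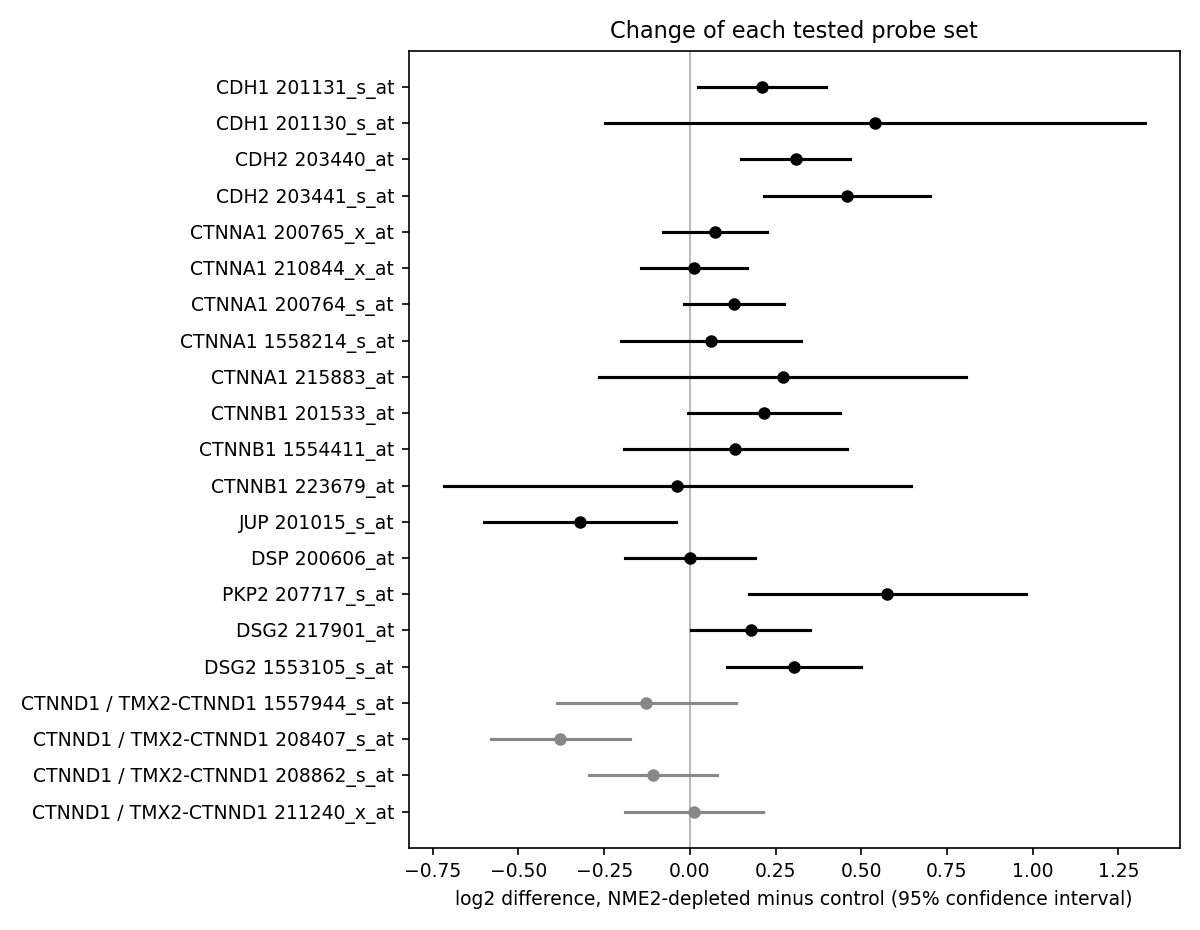
Log2 difference of each tested probe set, depleted minus control, labelled by gene and probe set identifier. Points are estimates and lines 95% confidence intervals from limma, in black for the 17 probe sets of 8 members and in grey for the 4 shared by CTNND1 and TMX2-CTNND1. Intervals above 0 are those of both CDH2 probe sets, both DSG2 probe sets, the brighter CDH1 probe set and the tested PKP2 probe set. Those of JUP and 1 shared probe set lie below 0, and that of DSP spans -0.19 to 0.19.

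In the desmosome, plakophilin and desmoglein had higher means in depleted cells and desmoplakin had nearly equal means, 5023 ± 304.5 and 5029 ± 506.2 (SD, n = 3). PKP2, a plakophilin that binds desmoplakin to the desmosomal plaque, gave 218.7, 259 and 259.8 on the depleted and 145.8, 188 and 161.9 on the control arrays. All depleted arrays lay above all control arrays. The means were 245.8 ± 23.5 and 165.2 ± 21.3 (SD, n = 3), and the log2 difference of 0.58 (SE 0.18, 95% interval 0.17 to 0.98), or 1.49-fold, was the largest of the 8 members by their brightest probe sets, with a limma adjusted p of 0.213. The second PKP2 probe set was under the filter, at 23.4, 16 and 42.7 against 7.6, 4.9 and 6.3. It did not overlap either, but at such signals the size of a change is uncertain, and it did not pass when all 54613 probe sets were tested (adjusted p = 0.454).

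DSG2, the desmoglein of simple epithelia, had higher signals on both probe sets. The brighter gave 6269, 7435 and 7487 on depleted and 6206, 6253 and 6223 on control arrays. Depleted replicate 1 was level with the controls and the other depleted arrays stood well above them. The log2 difference was 0.18 (SE 0.079, 95% interval 0.0038 to 0.35, limma adjusted p = 0.377), and 0.26 without that array. On the dimmer probe set the signals were 1500, 1538 and 1650 against 1235, 1378 and 1189, a difference of 0.30 (SE 0.089, adjusted p = 0.178), or 1.23-fold. With median centring the groups overlapped on the brighter probe set.

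DSP, desmoplakin, which anchors desmosomes to keratin filaments, gave 5063, 5306 and 4701 on the depleted and 5456, 5161 and 4470 on the control arrays. The ranges lay on top of each other. The log2 difference was 0.00146 (SE 0.086, 95% interval -0.19 to 0.19, limma adjusted p = 0.997), and its sign changed with median centring (-0.047).

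**Figure D3:**
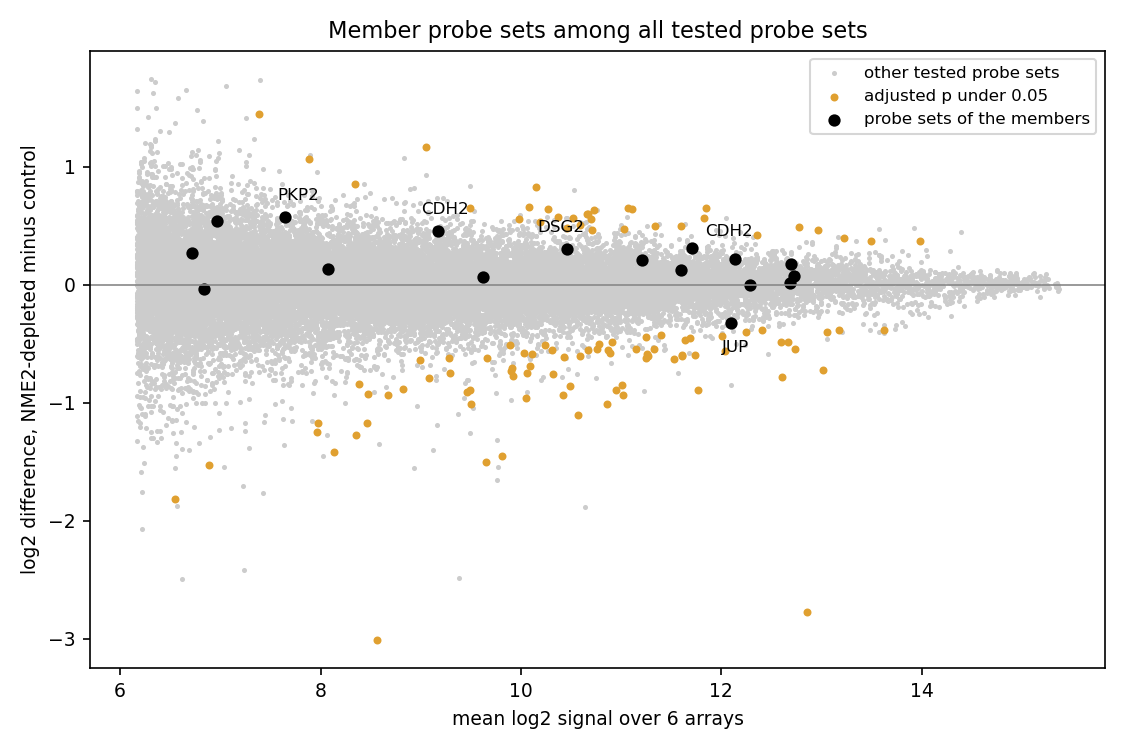
The 17 member probe sets (black) among all 27307 tested probe sets (grey). Mean log2 signal of the 6 arrays runs across, and the log2 difference (NME2-depleted minus control) runs up. The 108 probe sets with an adjusted p under 0.05 are orange. Members lie between -0.32 (JUP) and 0.58 (PKP2), inside the grey cloud.

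By the pattern over the 6 arrays, the genes most like CDH2, the member with the lowest p, were RNF11 (Pearson r = 0.999), MAP3K20 (0.997) and TXNDC16 (0.990). Their log2 differences were 0.24, 0.18 and 0.70, with limma adjusted p-values of 0.178, 0.312 and 0.136. Over these 6 shared arrays 227 of 12405 genes had an r above 0.9 with CDH2, so a high r was not particular to the genes named.

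Genes that work beside the members were described by lists, counting those past the adjusted threshold (0.540% of all tested genes). Among 7 tested other cadherins 0 passed. CDH19 had a log2 difference of 0.38 (SE 0.11, limma adjusted p = 0.177), and the list median was 0.041. The other tested CDH19 probe sets had 0.15 and 0.21. CDH24 had a difference of -0.85 (SE 0.33, adjusted p = 0.31) and CDH6 a difference of 0.80 (SE 0.34, adjusted p = 0.35). CDH24 was dim, at 47.3, 45.1 and 86.2 on depleted and 100.1, 115.4 and 93.5 on control arrays. CDH6 gave 119.4, 140.6 and 128.1 on depleted and 61.7, 125.9 and 52.2 on control arrays. At such signals the size of either change is uncertain. Among 4 other catenins and p120 relatives 0 passed. The alpha-catenin-like CTNNAL1 had 0.36 (adjusted p = 0.275), PKP4 0.22 (0.291) and CTNNBIP1, which keeps beta-catenin from TCF factors, 0.20 (0.799), with a median of 0.21.

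Of 6 other tested desmosome genes 0 passed, and the median was 0.054. PPL, periplakin, gave 607.5, 536.1 and 768.8 on depleted and 400.5, 382.6 and 530.1 on control arrays, a log2 difference of 0.54 (SE 0.17, limma adjusted p = 0.198). The lowest depleted array lay just above the highest control array. The desmocollin DSC2, the partner of DSG2 in desmosomes, gave 308, 275.6 and 232.4 against 165.4, 225.2 and 165.9, also without overlap (log2 difference 0.56, SE 0.19, adjusted p = 0.254). Its other tested probe set had 0.023. The plakophilin PKP3 had -0.079 (adjusted p = 0.823) and, on its other tested probe set, 0.29.

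Nectins and actin linkers (13 tested, 0 past the threshold, median 0.025) held VCL, the actin-binding partner of alpha-catenin, at 4516 ± 44.2 on depleted and 3746 ± 126.3 on control arrays (SD, n = 3). Its log2 difference was 0.27 (SE 0.065, limma adjusted p = 0.112), and the actin crosslinker ACTN4 had -0.25 (0.319) and LIMA1 0.16 (0.614). Genes of cadherin cleavage and turnover (10 tested, 0 past the threshold, median 0.0023) held ADAM10, the protease that sheds cadherin ectodomains, at 7264 ± 298.4 and 6078 ± 64.9 (SD, n = 3). Its log2 difference was 0.26 (SE 0.064, adjusted p = 0.117), and the presenilin PSEN2 had -0.23 (0.425) and APH1A 0.12 (0.616). The other tested probe sets of ADAM10 had smaller differences of 0.115 and 0.123. Those of PSEN2 had 0.025 and -0.0070, and those of APH1A -0.10 and 0.68.

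Among repressors of CDH1 transcription 0 of 10 passed, with a median of 0.039. CTBP2, a corepressor, had a log2 difference of -0.23 (SE 0.072, limma adjusted p = 0.212), ZEB2 0.51 (SE 0.19, adjusted p = 0.295) and TWIST2 -0.35 (adjusted p = 0.407). The other tested ZEB2 probe set went the other way, at -0.30. Of 7 epithelial transcription factors KLF4, a zinc finger factor, was the only one to pass, and it rose from 858 ± 74.4 to 1531 ± 241.3 (SD, n = 3). Its log2 difference was 0.83 (SE 0.12, adjusted p = 0.0218), the list median was 0.069, and it missed the threshold without NME2-depleted replicate 1 or 3 or control replicate 2 or 3 (adjusted p from 0.0638 to 0.0842).

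Keratins, to whose filaments desmosomes attach, had 5 tested members, 0 past the threshold and a median of -0.055. KRT8 gave 14199, 16303 and 15558 on depleted and 16810, 18687 and 18803 on control arrays, all depleted arrays being lower (log2 difference -0.24, SE 0.075, limma adjusted p = 0.209). Its filament partner KRT18 had -0.055 (adjusted p = 0.81), KRT80 0.14 (0.75) and KRT19 -0.069 (0.759). In the list of beta-catenin turnover and nuclear partners 0 of 13 passed, with a median of 0.057. APC, a scaffold of the complex that degrades beta-catenin, had a difference of 0.45 (SE 0.11, adjusted p = 0.112). TCF7L2, a nuclear partner of beta-catenin, had 0.22 (0.216) and the ubiquitin ligase subunit BTRC 0.38 (0.243). The dimmest of the 3 tested APC probe sets had -0.79.

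**Figure D4:**
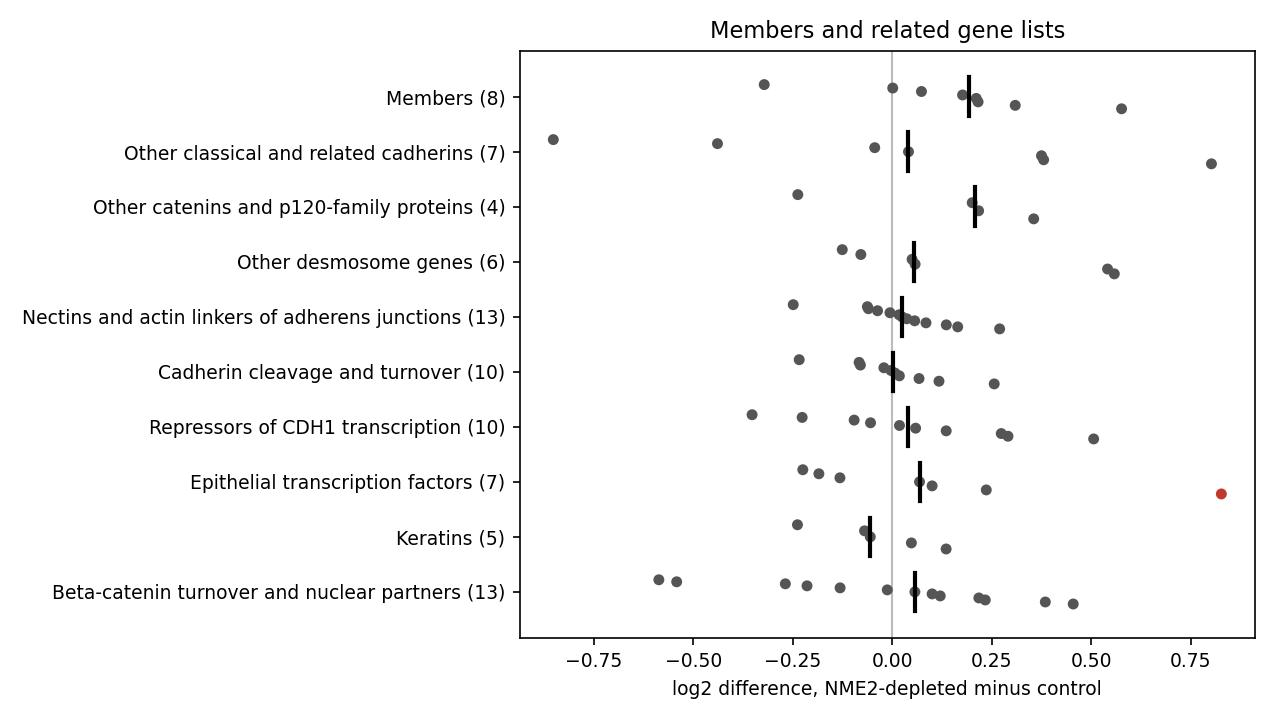
Log2 difference (NME2-depleted minus control) in the members and 9 related lists, with the number of tested genes in brackets. Each point is a gene by its brightest tested probe set, the black bar is the list median, and the red point, KLF4 at 0.83, is the only gene past an adjusted p of 0.05. The members' median is 0.19, with 7 of 8 genes above 0, and that of keratins is -0.055.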

How the data were processed

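Biotin-labelled cRNA of 6 A549 samples was hybridised to Affymetrix HG-U133 Plus 2.0 arrays, and groups and replicate numbers were read from the sample titles. The deposited values are signal intensity per probe set on a linear scale, made with GCOS 1.1.1 per the submitters' processing notes, and the authors had scaled the arrays (trimmed mean 500.06 to 500.07 on each, 2% trimmed at each end). The sources state no other settings, and a shift common to all transcripts would be lost. Of 54675 probe sets, 62 controls were left out. Signals under 1 (0.327%) were set to 1 and log2 was taken. Probe sets at or above the median mean log2 signal (71.7) were tested, 27307 in all.

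Each probe set was fitted with lmFit and eBayes (intensity trend) of limma 3.58.1, run in R 4.3.3, and p-values were adjusted by Benjamini-Hochberg over all tested probe sets, two-sided, at 0.05. The annotation gave 1 symbol for 41091 probe sets and several for 1801, and 11721 were unnamed. The GCOS significance analysis that the series names was not rerun, and no detection calls were used. No depth exists for arrays, and 3 per group limits precision. No pair of arrays was a duplicate (at most 0.297% equal values). The procedure was tested on simulated data. Members and lists were chosen with earlier results of these data known. Named are all members, NME2, every list gene past the threshold or else the 3 of lowest p, and the 3 genes most correlated with the member of lowest p. KRT18, marker genes and other probe sets are named outside that rule, after their values were seen. Alternatives were other scalings (quantile, median centring, cyclic loess), an offset of 16, other filters, no intensity trend, a replicate block, the methods' t-test, probe sets averaged by gene, and each array left out.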

Additional observations from a re-analysis of the deposited data

How the results depend on the processing

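No member probe set passed in any alternative that kept adjusted limma p-values, except with the replicate block, where 1 probe set and 1 member did (JUP, adjusted p = 0.048; CDH2 had 0.0542) and 464 probe sets passed in all instead of 108. Arrays of the same number resembled each other only weakly (correlations of deviations from the group means 0.114, 0.0805 and 0.0702). Every one of these exceeded the correlations of different numbers, at most 0.00531. The sample titles give numbers but state no pairing, so the main fit did not take the numbers as pairs. Whether the arrays were paired cannot be told from these data, and the result for JUP depends on it. The methods' t-test at an unadjusted p under 0.05 passed 3065 probe sets, among them 5 member probe sets and 2 members by their brightest one (CDH2 and PKP2), and 0 after Benjamini-Hochberg. The count over all probe sets was 30 with no filter, 192 with a filter at the 75th percentile, 61 without probe sets whose identifier marks possible sharing between transcripts (_s_at or _x_at), 0 without an intensity trend (3130 passed at an unadjusted p under 0.05, 4 of them member probe sets) and 19 to 70 with 1 array left out. Median centring called 20 higher and 107 lower, against 32 and 76. Member probe sets without overlap and higher, counted in settings chosen after seeing the data, were 4 with median centring (5.74% of all higher). Without shared probe sets they were 3 of the 7 left to test (10.2% of all higher). Those lower were 0 to 1 with 1 array left out (13.1% to 14.3% of all lower).

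Some signs changed. Median centring gave -0.047 for DSP, -0.036 for the second brightest CTNNA1 probe set and -0.036 for the second brightest shared with TMX2-CTNND1. Leaving out 1 array gave -0.081 to 0.063 for DSP, -0.022 to 0.052 for that CTNNA1 probe set, -0.013 to 0.15 for the fourth brightest of CTNNA1, -0.33 to 0.24 for the dimmest of CTNNB1, -0.046 to 0.064 for that shared probe set, -0.013 to 0.29 for KRT80, -0.088 to 0.47 for CTNNBIP1 and -0.15 to 0.000316 for PKP3. Without shared probe sets ZEB2 was -0.30, and with probe sets averaged by gene PKP3 was 0.10, APC -0.010 and KLF4 missed the threshold (adjusted p = 0.0822). CDH1, CDH2, PKP2, DSG2 and JUP kept their sign under every alternative that measured them. The cause of these changes was not tested.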
